A study of Mus musculus with 4 samples.

Results

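The 7 genes of interest encode tissue inhibitors of metalloproteinases (Timp1, Timp2, Timp3), small leucine-rich proteoglycans (biglycan, Bgn; lumican, Lum; decorin, Dcn) and fibronectin (Fn1). They were followed in RNA-seq of lineage-negative mouse bone marrow, from which cells with mature blood cell markers have been removed. Of the 7, 6 had a row among the 15607 genes of the deposited table and are described here, and Timp1 was not analysed here. The genes were chosen by function, but with the knockout over wild type differences of these same libraries known, Timp3, Bgn and Lum among them. Their own fold changes are therefore a description, and no test of them is read as support.

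One group of animals had lost Mel18 conditionally, in hematopoietic cells (labelled Mel18 knockout, mice 5 and 6), and the others were wild type (mice 1 and 3), with 1 library per mouse. Mel18 is a subunit of Polycomb repressive complex PRC1 and is encoded by Pcgf2. The sources used here name neither the Cre driver nor the deleted exons, nor the strain, sex or age of the mice. The labels differ on the cells: titles say HSCs, the cell type field says stem and progenitor cells, and the design text says sorted Lin- cells. The stem and progenitor markers Kit and Cd34 were at 207 to 238 and 145 to 148 CPM (counts scaled to the library's total) in the libraries labelled knockout, and at 195 to 226 and 128 to 183 CPM in those labelled wild type. Total counts were 46240864 and 44642002 in the libraries labelled knockout and 35599564 and 37197363 in those labelled wild type. Pcgf2 itself had 303 and 321 counts in the libraries labelled knockout, against 210 and 158 in those labelled wild type. These counts cover the whole gene, so exons left by the deletion may be included and they do not check the genotype. Knockout and wild type below mean the libraries labelled so.

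Timps bind the active site of matrix metalloproteinases and block it. Timp3 is the member that is held in the extracellular matrix, and it also inhibits ADAM and ADAMTS proteases, while Timp2 takes part, with Mmp14, in the activation of pro-Mmp2. Biglycan and decorin carry chondroitin or dermatan sulfate chains, lumican carries keratan sulfate, and these proteoglycans bind collagen fibrils or matrix growth factors. Fibronectin is a glycoprotein that cells assemble into fibrils through integrins. In bone marrow much of the matrix is made by stromal and bone-forming cells, and macrophages also make fibronectin. Polycomb complexes act mainly at promoters rich in CG pairs.

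The genes' windows of 250 bases before to 50 bases after the transcription start are in RefSeq, build GRCm38.p6, for 4 of the 7, and 3 are shown because those genes differed in direction or in CG content. Capitals mark CG pairs. The windows are chr10:86300162-86300461 on the plus strand for Timp3, chr11:118355362-118355661 on the minus strand for Timp2 and chrX:73483351-73483650 on the plus strand for Bgn.
Timp3: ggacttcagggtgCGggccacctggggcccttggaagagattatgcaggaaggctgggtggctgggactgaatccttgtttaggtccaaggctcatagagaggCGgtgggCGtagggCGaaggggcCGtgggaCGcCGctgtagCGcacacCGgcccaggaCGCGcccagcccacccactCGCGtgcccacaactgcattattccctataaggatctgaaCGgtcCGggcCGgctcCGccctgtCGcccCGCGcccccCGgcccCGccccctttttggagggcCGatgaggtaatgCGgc
Timp2: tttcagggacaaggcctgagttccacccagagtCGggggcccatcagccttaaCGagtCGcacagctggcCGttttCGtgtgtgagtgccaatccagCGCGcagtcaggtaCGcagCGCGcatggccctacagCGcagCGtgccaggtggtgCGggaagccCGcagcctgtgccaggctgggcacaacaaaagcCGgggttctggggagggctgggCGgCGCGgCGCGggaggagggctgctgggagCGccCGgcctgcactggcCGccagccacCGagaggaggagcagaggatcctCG
Bgn: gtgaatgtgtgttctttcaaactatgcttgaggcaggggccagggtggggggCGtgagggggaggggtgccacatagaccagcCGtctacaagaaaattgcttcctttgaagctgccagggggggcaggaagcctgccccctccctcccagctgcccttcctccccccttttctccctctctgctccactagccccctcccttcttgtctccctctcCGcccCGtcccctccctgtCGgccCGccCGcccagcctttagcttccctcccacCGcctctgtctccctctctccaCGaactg

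The window of Timp3 held 24 CG pairs, and 81.6% of the 32851 windows in the table held as many or fewer. That of Timp2 held 25 (83.1% as many or fewer) and that of Bgn 9 (56.5%). The median window held 7. The inhibitor genes, which differed in opposite directions, thus had windows of nearly the same CG content. The letters GGGCGG, searched on both strands, were found 2 times in Timp3, 1 time in Timp2 and 3 times in Bgn, and in 35.7% of all windows. The letters TATAA, on both strands, were found 1 time in Timp3 and 0 times in Timp2 and Bgn, and in 24.9% of all windows. The letters TGANTCA, which read the same on both strands, were found in 0 of these 3 windows and in 7.81% of all. Each match of GGGCGG holds 1 of the CG pairs counted.

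The level per length, in RPKM (the CPM per kilobase of exon), set the 6 genes apart over a wide range. Fn1 was at 61.8 and 98.1 RPKM in knockout mice 5 and 6, and at 55.2 and 74.8 RPKM in wild type mice 1 and 3. Its mean level per length was above that of 95.5% of all genes. Timp2 followed at 9.48 and 9.94 RPKM in knockout and 12.0 and 15.5 RPKM in wild type, above 68.8% of genes. Timp3 was at 2.24 and 2.03 RPKM in knockout and 0.752 and 0.841 RPKM in wild type, above 32.0% of genes. Bgn was lower again, at 0.816 and 0.635 RPKM in knockout and 0.291 and 0.272 RPKM in wild type. Up to this point the order was the same in each of the 4 libraries, with no overlap between neighbours within a group. Dcn was at 0.363 and 0.338 RPKM in knockout and 0.00937 and 0.156 RPKM in wild type. Lum was at 0.371 and 0.238 RPKM in knockout, and at 0 and 0.0338 RPKM in wild type. These last genes overlapped each other in both groups and could not be ordered.

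**Figure D1:**
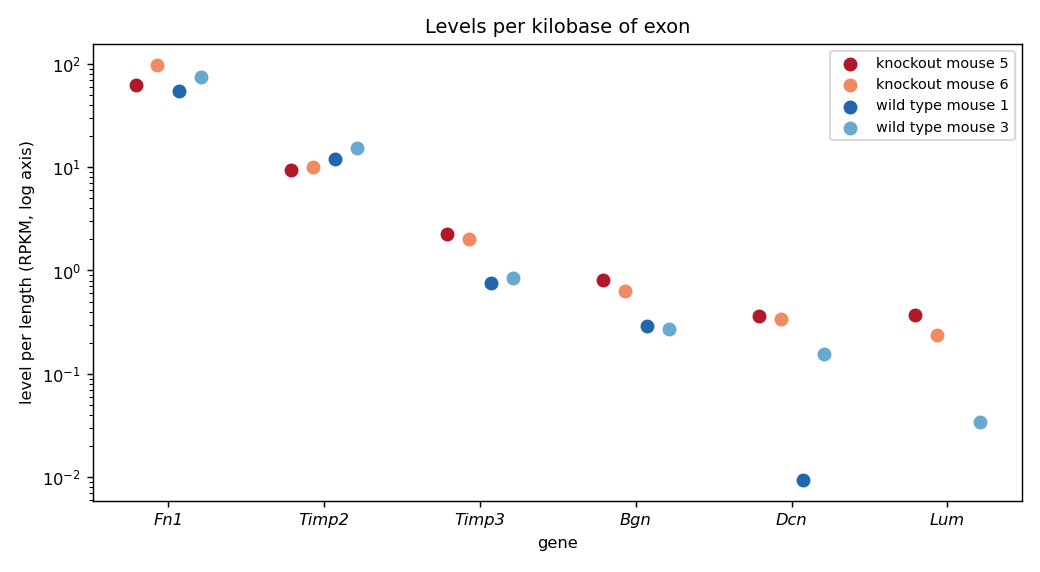
Level per kilobase of exon (RPKM, log axis) of the 6 genes in each library, from Fn1 at the left to Lum at the right, with 1 point per mouse. Lum in wild type mouse 1 had 0 counts and has no point on the log axis. Fn1 lies between 55.2 and 98.1 RPKM, while Dcn and Lum lie at or below 0.371 RPKM.

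Among the inhibitors, Timp3 was higher and Timp2 lower in the knockout libraries. Timp3 (chromosome 10, 86300372 to 86349506, plus strand) had 842 and 738 counts in knockout mice 5 and 6, against 224 and 248 in wild type mice 1 and 3. Its level was 17.4 ± 1.20 CPM in knockout and 6.49 ± 0.512 CPM in wild type (SD, n = 2 each). Both knockout mice lay far above both wild type mice, and mice of a group lay close together. The log2 fold change was 1.42 ± 0.14 (SE), or 2.68-fold. The gene lies inside Syn3 on the opposite strand (chromosome 10, 86055125 to 86498896), and this library chemistry does not mark strand. Syn3 had 7 and 14 counts in knockout and 12 and 3 in wild type, few beside those of Timp3.

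Timp2 (chromosome 11, 118301069 to 118355740, minus strand) had 1706 and 1729 counts in knockout, against 1716 and 2190 in wild type. With library size taken into account, it was at 36.9 and 38.7 CPM in knockout and at 46.9 and 60.5 CPM in wild type. Both knockout mice lay below both wild type mice. In CPM, knockout mouse 6 and wild type mouse 1, the nearest pair, lay closer together than the wild type mice did. The log2 fold change was -0.51 ± 0.12 (SE). Cep295nl lies within the span of Timp2 on the same strand and was not analysed here. Of the summed RPKM of these inhibitors, Timp3 made up 19.1% and 17.0% in knockout libraries and 5.88% and 5.14% in wild type libraries. Timp2 remained the more abundant transcript in each of the 4 libraries, by 4.24 and 4.90 times per length in knockout and 16.0 and 18.5 times in wild type.

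**Figure D2:**
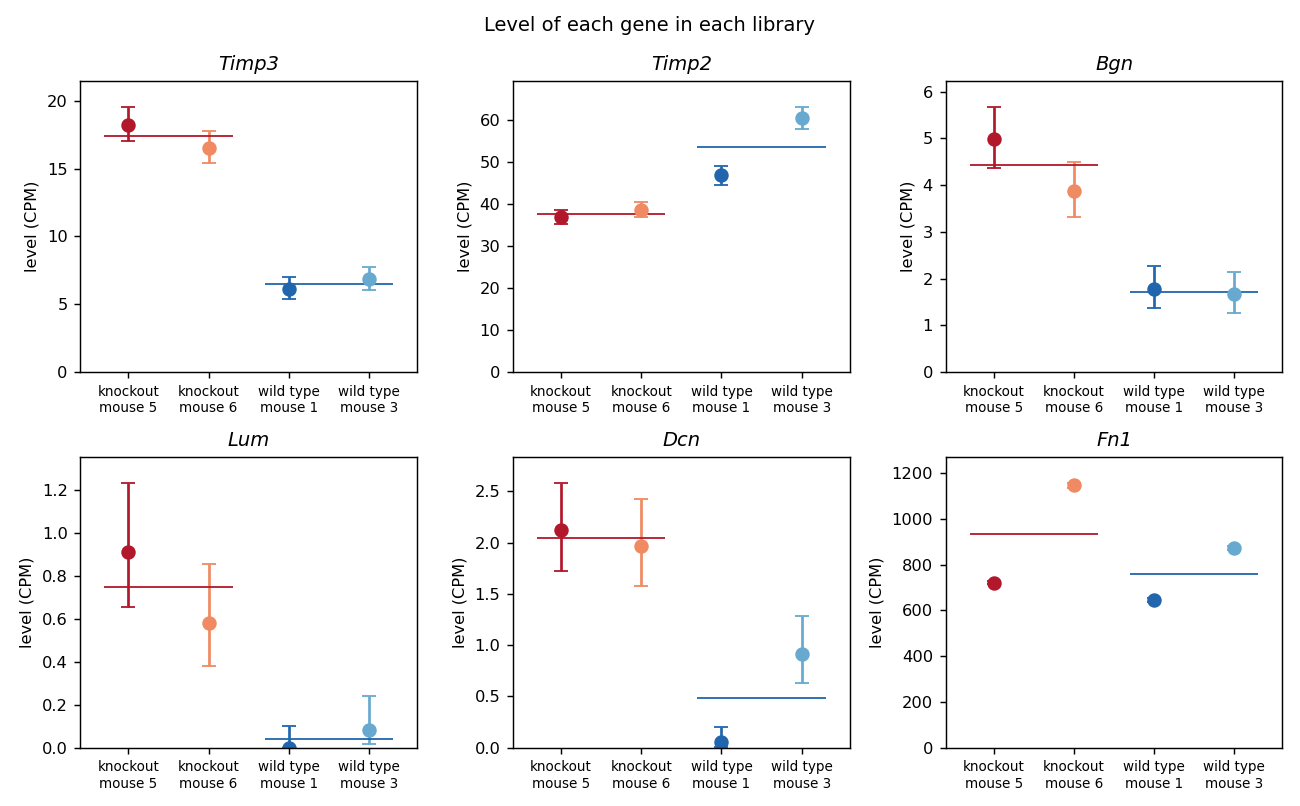
Level of each gene in each library in CPM, on linear axes that start at 0, with knockout mice in red and orange and wild type mice in blues. Bars are 95% exact Poisson intervals, which cover counting error only, and horizontal lines are group means. Timp3, Bgn, Lum and Dcn are higher in both knockout mice than in both wild type mice, Timp2 is lower, and the Fn1 values of the groups overlap.

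The 3 proteoglycans were higher in both knockout mice than in both wild type mice, at low levels. Bgn (chromosome X, 73483602 to 73495933, plus strand) had 230 and 173 counts in knockout, against 65 and 60 in wild type. That is 4.43 ± 0.781 CPM in knockout and 1.72 ± 0.0850 CPM in wild type (SD, n = 2 each), with a log2 fold change of 1.36 ± 0.23 (SE). The wild type mice were nearly equal, and the knockout mice were further apart.

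Dcn (chromosome 10, 97479609 to 97518143, plus strand) had 98 and 88 counts in knockout, against 2 and 33 in wild type. Knockout mice were at 2.12 and 1.97 CPM, and wild type mice 1 and 3 at 0.0547 and 0.911 CPM. On the log2 scale the wild type mice differed more from each other than wild type mouse 3 did from the knockout mice. The log2 fold change was 2.08 ± 0.92 (SE), and it was 1.16 without wild type mouse 1 and 5.14 without wild type mouse 3. Lum (chromosome 10, 97565128 to 97572703, plus strand) is a neighbour of Dcn, 46984 bases further along the same strand. It had 42 and 26 counts in knockout, against 0 and 3 in wild type. The summed counts gave a level 18.2 times as high in knockout, with a 95% exact interval of 5.96 to 90.2 that covers counting error only. The fitted log2 fold change of 4.08 ± 0.78 (SE) was 3.13 without wild type mouse 1 and 7.99 without wild type mouse 3, where the wild type library left is at 0 and the fitted value is no bound. The 0 of wild type mouse 1 allows up to 0.0820 CPM (3 counts), against 0.909 and 0.582 CPM in the knockout mice. Bgn was 52.6% and 52.5% of the summed RPKM of the 3 proteoglycans in knockout libraries, and 96.9% and 58.9% in wild type mice 1 and 3.

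Fn1 (chromosome 1, 71585520 to 71653200, minus strand) had 33375 and 51197 counts in knockout, against 23580 and 31644 in wild type. It was at 934 ± 299.9 CPM in knockout and 759 ± 162 CPM in wild type (SD, n = 2 each), and the groups overlapped. The log2 fold change of 0.30 ± 0.26 (SE) turned to -0.072 without knockout mouse 6. At these counts the counting intervals are narrow, and the wider spread is that between libraries. With 1 library per mouse, the mouse and the preparation of its library cannot be told apart. The antisense gene Apol7d overlaps the start of Fn1 and was not analysed here. The table gives 1 count per gene, so splice forms of Fn1 were not examined.

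Across the 6 genes, 1 (Timp3, higher) passed an adjusted p of 0.05 in the edgeR quasi-likelihood test over all genes. In that test 21 of 15607 genes, or 0.135%, passed in all, 0.032% higher and 0.103% lower. Timp3 did not pass without knockout mouse 5, without robust estimation of the spread, or with limma voom. The authors' deposited table has 3 of the 6 genes (Timp3, Bgn and Lum) at a false discovery rate under 0.05, and 1.13% of all genes. For 4 of the 6 both knockout libraries lay above both wild type libraries, as they did for 21.4% of all genes. For 1 of the 6, Timp2, both lay below, as for 20.9% of all genes. The median log2 fold change was 1.39 over the 6 genes and -0.00529 over all genes. Since this contrast was known when the genes were chosen, nothing is read from these counts. The p-values set the group difference against a spread that is estimated from 2 mice per group and drawn toward that of the other genes.

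The genes differed in how much the mice of 1 group varied. The calls known when the genes were chosen depend in part on this spread, so it too is a description. Gaps are differences of log2 CPM, computed with a prior count of 2, which narrows the gaps of genes with few counts. Between the wild type mice (mouse 3 minus mouse 1) the gap was 0.16 for Timp3 and -0.098 for Bgn, with a median absolute gap of 0.18 over all genes. For Timp2 and Fn1 it was 0.37 and 0.44. For Dcn it was 3.21, and only 0.173% of all genes had a gap as large. For Lum it was 1.43, with 1.81% of genes at or above it. Between the knockout mice (mouse 6 minus mouse 5) the widest gap was that of Fn1, at 0.67, reached by 6.02% of genes, and the next was that of Lum, at -0.60. The median absolute gap over all genes was 0.11 there. Profiles over the 4 libraries were also compared, by the Euclidean distance between centred log2 CPM values. This distance includes the difference between the groups, which was known when the genes were chosen, so closeness is a description only. It was 0.25 between Timp3 and Bgn. Lum and Dcn stood further apart, at 1.42, and Dcn lay 2.53 from Timp3.

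**Figure D3:**
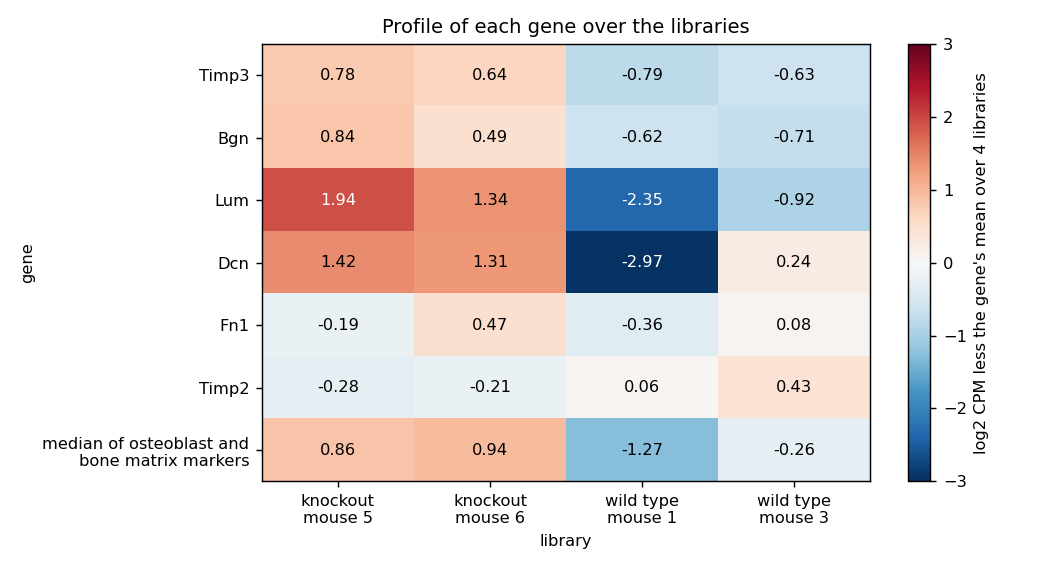
Log2 CPM of each gene less its own mean over the 4 libraries, with knockout mice in the left columns and wild type mice in the right columns, and the median of the osteoblast and bone matrix markers in the last row. Red is above and blue below the gene's mean. Dcn ranges from -2.97 in wild type mouse 1 to 1.42 in knockout mouse 5, while Timp3 ranges from -0.79 to 0.78 and Bgn from -0.71 to 0.84.

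By the same distance, the 3 nearest of 11837 other genes with a mean of at least 1 CPM were found for each gene, over the 4 libraries. Since the group difference enters this distance, genes that differ alike between the groups come near by construction. For Timp3 they were Ly6g6f (0.15), the platelet chemokine gene Ppbp (0.20) and the immunoglobulin segment Ighv2-6 (0.24). For Bgn they were Ighv2-6 (0.14), Mpig6b (0.22) and the muscle creatine kinase gene Ckm (0.25). The nearest to Lum were the osteocalcin gene Bglap (0.59), the skeletal muscle actin gene Acta1 (0.74) and Sparc (0.80), which encodes the matrix protein osteonectin. The same genes came nearest to Dcn, in the order Sparc (0.81), Acta1 (0.86) and Bglap (0.89). For Timp2 the nearest were Mxd1 (0.028), Ankrd33b (0.047) and Adpgk (0.052). For Fn1 they were Sdf2l1 (0.061), Rspo1 (0.097) and Arhgap29 (0.12).

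Markers of other cell types that the fraction could hold were examined beside these genes. Lineage depletion is meant to remove mature neutrophils and macrophages, and markers of both were measured here. The 18 measured osteoblast and bone matrix markers summed to 802 and 761 CPM in knockout and 136 and 273 CPM in wild type mice 1 and 3. The differences between these sums came largely from the collagen genes Col1a1, given below, and Col1a2. Col1a2, also named after values were seen, was at 249 and 242 CPM in knockout and 5.60 and 58.2 CPM in wild type. The median log2 fold change of the 18 markers was 2.07. By edgeR quasi-likelihood 0 of the 18 passed over all genes and 10 had an unadjusted p under 0.05, all higher, against 1388 of 15607 over all genes. The authors' deposited table calls 5 of the 18. For 16 of the 18 both knockout mice lay above both wild type mice, as for 21.4% of all genes. No measured marker of this list was at 0 counts in any library, but only 18 of the 23 listed had a row. The lowest row total over the 4 libraries was 24 counts, so a 0 was unlikely beforehand. Nothing is read from its absence. Bglap had 113 and 82 counts in knockout against 2 and 16 in wild type (log2 fold change 3.10, adjusted p = 0.236). Ibsp, the bone sialoprotein gene (1.75, adjusted p = 0.245), and Col3a1 (2.59, adjusted p = 0.248) followed. The collagen gene Col1a1, named for its level after values were seen, was at 352 and 326 CPM in knockout and 4.73 and 80.1 CPM in wild type. It stood at 70.7 and 84.1 times the CPM of Bgn in knockout, and at 2.66 and 48.3 times in wild type mice 1 and 3. Between the wild type mice (mouse 3 minus mouse 1) the median gap of the 18 markers was 0.85 in log2 CPM. Dcn was far lower in wild type mouse 1 than in wild type mouse 3, as were Bglap, Col1a1 and Col1a2. Timp3 and Bgn were not. Col3a1 had 2 and 3 counts there, with no such difference shown. For Lum, at 0 and 3 counts, the counting intervals overlap (0 to 0.101 and 0.0171 to 0.242 CPM). The part of bone-forming cells in the levels of the proteoglycans was not tested. In bulk RNA, more cells of a type and more RNA per cell cannot be told apart.

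Only 8 of the 18 listed perivascular stromal and fibroblast markers had a row, so these cells were covered in part. Of these 8 measured markers, 0 passed by quasi-likelihood and 2 had an unadjusted p under 0.05, against 1388 of 15607 over all genes. They summed to 340.2 and 337 CPM in knockout and 380.2 and 489 CPM in wild type, with a median log2 fold change of -0.23. The 3 with the smallest p were Pi16 (-0.50, adjusted p = 0.311), the cadherin gene Cdh11 (1.05, adjusted p = 0.508) and the Kit ligand gene Kitl (-0.44, adjusted p = 0.634). The 13 endothelial markers summed to 281 and 248 CPM in knockout and 256 and 232 CPM in wild type, with a median of 0.16. The quasi-likelihood test called 0 of the 13, 4 of which had an unadjusted p below 0.05, beside the same share over all genes. Sox18 (3.09, adjusted p = 0.220), Eng (0.37, adjusted p = 0.391) and Kdr (0.89, adjusted p = 0.394) had the smallest p.

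Megakaryocyte markers were higher, beside Timp3 and Bgn. Over all marker lists the quasi-likelihood test called 5 genes, against 0 without knockout mouse 5 or with limma voom, 1 without robust estimation, 2 without knockout mouse 6, 33 without wild type mouse 1 and 26 without wild type mouse 3. Of 17 measured, Ppbp and Pf4 rose over all genes and 15 did not pass, with a median log2 fold change of 0.47. The authors' deposited table calls 5 of the 17. By quasi-likelihood 9 of the 17 had an unadjusted p under 0.05, all higher, against 1388 of 15607 over all genes. For 14 of the 17 both knockout mice lay above both wild type mice, as for 21.4% of all genes. The 17 markers summed to 619.9 and 559.7 CPM in knockout and 452 and 447 CPM in wild type. Ppbp was at 34.3 and 29.7 CPM in knockout and 9.84 and 11.0 CPM in wild type (log2 fold change 1.62, edgeR adjusted p = 0.0160), Pf4 followed at 0.92 (adjusted p = 0.0477), and Gp1ba, at 1.07, did not pass (adjusted p = 0.0631). As for Timp3, the wild type mice lay close together for these 3 genes. Neutrophil markers were lower, beside Timp2. Of 15 measured, 3 fell (Fpr2, Retnlg and Cxcr2), with log2 fold changes of -0.97, -0.92 and -0.67 and adjusted p of 0.0353, 0.0449 and 0.0449, and 12 did not pass. The authors' deposited table calls 12 of the 15, and the dependence on single mice and tools given for the marker calls covers these 3 too. By quasi-likelihood 14 of the 15 had an unadjusted p under 0.05, all lower. For 14 of the 15 both knockout mice lay below both wild type mice, as for 20.9% of all genes. The list summed to 14371 and 14570.1 CPM in knockout and 20349 and 28821 CPM in wild type, with the highest value in wild type mouse 3, as for Timp2. All 17 listed megakaryocyte and 15 listed neutrophil markers had a row, and none was at 0 counts in any library. The part of either cell type in the levels of the inhibitors was not tested.

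The 14 macrophage markers summed to 1115 and 1083 CPM in knockout and 991 and 1479.9 CPM in wild type, which overlap as Fn1 does but with another order of mice. Their median log2 fold change was -0.23, but 0.19 without wild type mouse 3 and -0.60 without wild type mouse 1. By quasi-likelihood 0 passed, with 1 at an unadjusted p under 0.05 (Spic, -0.64, adjusted p = 0.476), against 1388 of 15607 over all genes. Next by p came Slc40a1 (-0.21, adjusted p = 0.650) and Adgre1 (-0.24, adjusted p = 0.744). The 15 stem and progenitor markers had a median of -0.081, and 0 passed, with 1 at an unadjusted p under 0.05. That was Ly6a (-0.74, adjusted p = 0.554), and Gata2 was at -0.31 (adjusted p = 0.625).

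The partners of these genes were examined as 7 lists of 128 measured genes, a few of which are also cell type markers. By quasi-likelihood 0 of the 128 passed over all genes, with 26 at an unadjusted p under 0.05, against 1388 of all 15607 genes. That share over all genes stands beside the count of each list below. The DESeq2 Wald test and the edgeR likelihood ratio test each called 7 of them, and limma voom called 0.

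Of the proteases that Timps inhibit, the 13 measured matrix metalloproteinases had a median log2 fold change of -0.011. The 3 smallest p belonged to genes of neutrophil granules or membrane, all lower in knockout. Mmp8, a collagenase, was at 166 and 165 CPM in knockout and 264 and 313 CPM in wild type (log2 fold change -0.80, edgeR adjusted p = 0.0572). Mmp9, a gelatinase and the most abundant of these 3, was at 455 and 439.8 CPM in knockout and 582 and 809 CPM in wild type (-0.64, adjusted p = 0.294). Mmp25 followed, at -0.54 (adjusted p = 0.396). These were the 3 of 13 at an unadjusted p under 0.05. Mmp8 and Mmp9 also stand among the neutrophil markers. Chosen after values were seen, for their known roles, Mmp14 was at 22.1 and 19.9 CPM in knockout and 21.4 and 18.9 CPM in wild type, and Mmp2 at 2.06 and 2.13 CPM in knockout and 1.37 and 1.55 CPM in wild type. The 18 ADAM and ADAMTS proteases had a median of 0.13, with 1 higher and 2 lower at an unadjusted p under 0.05. Adam19 (-0.53, adjusted p = 0.164), Adam8 (-0.62, adjusted p = 0.170) and Adamts3 (0.37, adjusted p = 0.550) had the smallest p. Adam17, the sheddase of TNF and a target of Timp3, was at 102 ± 2.37 CPM in knockout and 91.2 ± 12.1 CPM in wild type (SD, n = 2 each), chosen likewise. Among 13 other inhibitors and Timp partners the median was -0.0026, with 2 higher and 2 lower at that p. Serpinh1, the collagen chaperone, was at 5.19 and 4.95 CPM in knockout and 0.957 and 1.66 CPM in wild type (1.95, adjusted p = 0.0840). Kdr (0.89, adjusted p = 0.394), whose product binds Timp3, and Cd63 (-0.25, adjusted p = 0.447), whose product binds Timp1, followed.

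The 18 other matrix and cell-surface proteoglycans had a median log2 fold change of -0.034, with 1 higher and 0 lower at an unadjusted p under 0.05. Perlecan, Hspg2, had 83 and 72 counts in knockout against 25 and 32 in wild type (1.12, edgeR adjusted p = 0.294). Podn, a relative of the small leucine-rich family, had 15 and 14 counts in knockout against 5 and 6 in wild type (1.06, adjusted p = 0.587). The glypican gene Gpc4 came next (0.40, adjusted p = 0.593). Serglycin, Srgn, the proteoglycan of blood cell granules, named after its values were seen, was at 818 and 734 CPM in knockout and 991 and 825 CPM in wild type. The 27 genes of glycosaminoglycan chain synthesis had a median of 0.0065, with 3 higher and 1 lower at that p. The smallest p belonged to Chsy3 (2.46-fold, adjusted p = 0.383), then on the log2 scale Chst15 (-0.21, adjusted p = 0.524) and Ext1 (0.22, adjusted p = 0.540).

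The 17 genes of fibronectin receptors and assembly had a median log2 fold change of 0.099, with 4 higher and 1 lower at an unadjusted p under 0.05. Plaur, the urokinase receptor gene, was at 53.0 and 51.8 CPM in knockout and 72.7 and 86.3 CPM in wild type (-0.60, edgeR adjusted p = 0.119). The integrin genes Itgb3 (0.41, adjusted p = 0.214) and Itga5 (0.30, adjusted p = 0.348) followed, and Itgb3 is also a subunit of the platelet fibrinogen receptor. The 22 genes of the TGF-beta pathway, whose ligands decorin and biglycan can bind, and of biglycan receptors had a median of -0.11, with 2 higher and 4 lower at that p. Tgfbr2 was at 47.1 and 47.1 CPM in knockout and 59.5 and 59.3 CPM in wild type (-0.33, adjusted p = 0.225). Tlr2, a receptor of soluble biglycan, followed (-0.38, adjusted p = 0.294), and then Ltbp1, of a latent TGF-beta binding protein (0.90, adjusted p = 0.348).

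**Figure D4:**
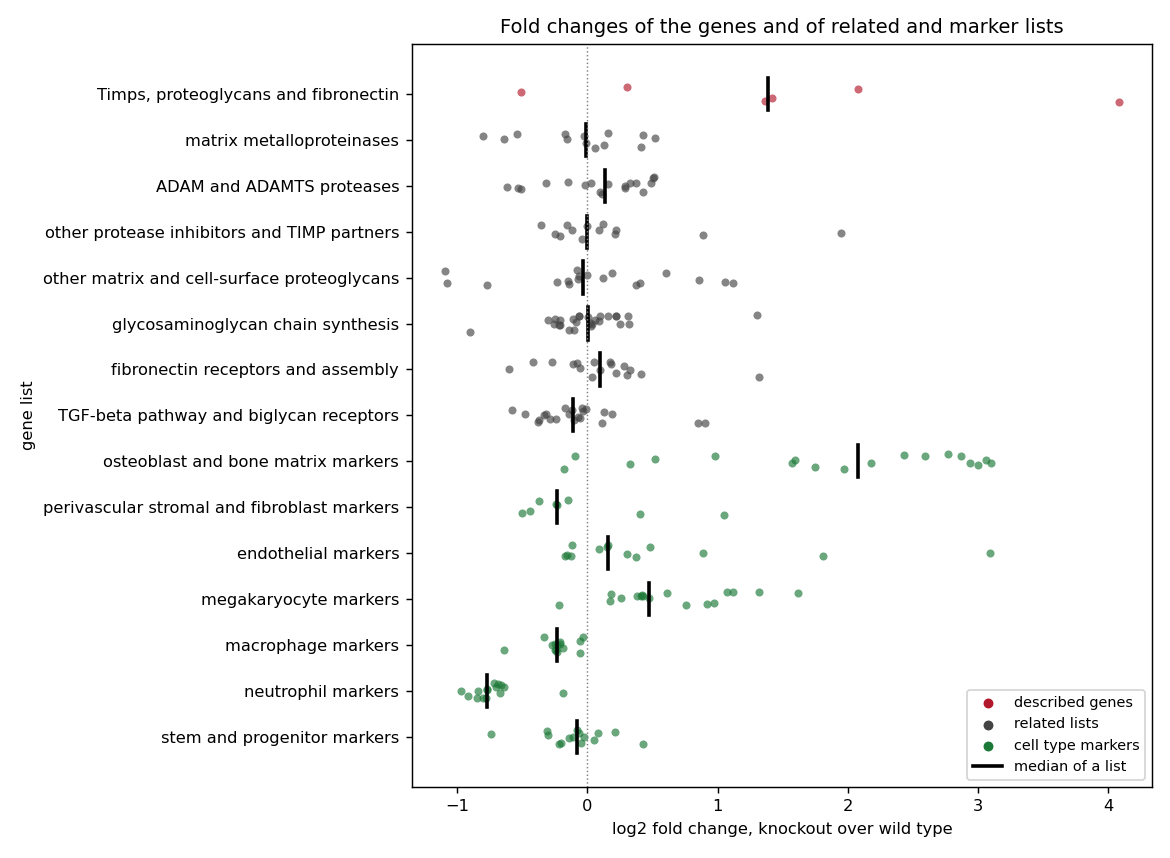
Log2 fold change, knockout over wild type, of each measured gene of each list, with 1 point per gene, the 6 described genes at the top in red, the related lists in grey and the cell type markers in green. Black bars are medians. The osteoblast and bone matrix markers have the highest median of the marker lists at 2.07, the neutrophil markers the lowest at -0.77, and the 7 related lists lie between -0.11 and 0.13.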

How the data were processed

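RNA was made into cDNA with a low-input SMART-Seq v4 kit and into sequencing libraries by Nextera XT, according to the labels' protocols. The submitters' processing notes name STAR 2.5, Trimmomatic 0.40, edgeR 3.28.1, FastQC, MultiQC 0.11.5 and mm10. Which program counted the reads, with which annotation and strand setting, is not given in the sources used here. A table deposited by the authors holds whole-number counts per gene, log2 CPM and log2 RPKM per library, and the log2 fold change, p-value and false discovery rate of the authors' own comparison, per the file headers. Each row has at least 24 counts in all. A further 2 columns of counts belong to no labelled sample and were left aside. GENCODE M21 holds 15141 of the identifiers, each at the deposited position. The deposited lengths of the 6 genes equal their merged exons there.

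Knockout was compared with wild type by robust quasi-likelihood F tests in edgeR 4.0.16 (R 4.3.3) after filterByExpr, which removed 0 genes, and TMM scaling. P-values of the 15607 genes were adjusted together (Benjamini-Hochberg), and 0.05 was the threshold. The fit left 2 residual degrees of freedom. Standard errors come from the F statistic, and CPM and RPKM in the text were computed with TMM-scaled library sizes and the deposited gene length. The procedure was also run on simulated counts, with changes set only in genes at mean levels above those of Lum and Dcn, and nothing is read from that run here. The genes, lists, tests and naming rule were chosen with earlier results of these data known. The rule named each of the genes, those with a smallest p (up to 3) or past the threshold in each list, the 3 nearest by profile (predicted Gm and Rik genes left out) and genes whose span overlaps, of which 1 gene is not reported here. Alternatives were DESeq2 1.42.0 size factors, total counts, the DESeq2 Wald test, limma 3.58.1 voom, the likelihood ratio test, no robust estimation, 2 other filters and removal of each library.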

Additional observations from a re-analysis of the deposited data

How the results depend on the processing

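The log2 fold changes of Timp3, Bgn, Timp2 and Dcn kept their sign in the 12 alternatives run, and that of Lum in the 11 in which it was fitted. The groups did not overlap for these genes, so dropping 1 library could hardly turn a sign. The likelihood ratio test, no robust estimation and no filter gave the main fold changes again. Nothing is therefore read from the kept signs. The fold changes lay between 1.34 and 1.5 for Timp3, 1.17 and 1.53 for Bgn, -0.68 and -0.32 for Timp2, 1.16 and 5.14 for Dcn, and 3.13 and 7.99 for Lum. For Fn1 they lay between -0.072 and 0.59, with the sign turned in 1 of 12. The counts of calls moved far more. Over all genes 21 were called, against 219 with the DESeq2 Wald test, 177 with the likelihood ratio test, 10 with a filter of 1 CPM in 2 libraries, 4 without robust estimation and 0 with limma voom (1363 at an unadjusted p under 0.05). Removal of 1 library gave 5 (without knockout mouse 5) to 844 (without wild type mouse 3), and 20 of the 21 were among the 844. Of the 6 genes 1 was called, against 2 by DESeq2, 3 by the likelihood ratio test and 0 by voom and without robust estimation, and 0 (without knockout mouse 5) to 4 (without wild type mouse 3) with 1 library removed. Without wild type mouse 1 there were 3, with Timp2 lower among them. Of the related genes 0 were called, against 1 with total counts, 7 by DESeq2 and 7 by the likelihood ratio test, and 0 to 19 with 1 library removed. Of the marker genes 5 were called, against 23 by DESeq2, 23 by the likelihood ratio test, 2 with the 1 CPM filter, 1 without robust estimation and 0 by voom, and 0 to 33 with 1 library removed. With 1 library removed the lone mouse is assumed to vary like the other pair. The cause of these moves was not tested. The medians of the osteoblast (1.59 to 2.74), megakaryocyte (0.41 to 0.62) and neutrophil (-0.94 to -0.55) markers kept their sign in all 12, as did those of the ADAM, fibronectin, TGF-beta, perivascular and endothelial lists. Most osteoblast, megakaryocyte and neutrophil markers had no overlap between the groups, so the signs of these medians could hardly turn either. The medians of the macrophage (-0.60 to 0.19) and stem cell (-0.33 to 0.15) markers turned in 1 of 12, as did that of the metalloproteinases (up to 0.0084). Those of the other inhibitors (up to 0.034), other proteoglycans (up to 0.22) and chain synthesis genes (down to -0.034) turned in 1 or more. No paired analysis was run because the labels used here do not pair mice of the groups. Lum and Dcn rest on 0 to 33 counts in wild type libraries.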
